A study of Mus musculus with 8 samples.

Results

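MYOD1, ID3 and CDKN1C are 3 genes that act on the decision of a myoblast to keep dividing or to become muscle. All spots carrying 1 of these 3 symbols and no other were taken from the array, which gave 6 spots of 9984, or 3 genes of 2922 named ones. Each gene had 2 spots printed side by side. The genes were selected on their mean scores in conditioned against control medium at matched hours, from values of these same arrays, so their scores are described below with no test.

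The cells were C2C12, a mouse myoblast line grown in DMEM with glutamine and fetal bovine serum. MBN denotes myoblasts in control medium, sampled at 0, 14 and 24 h. MBC denotes myoblasts kept for 14 or 24 h in medium in which CAPAN-1 cells, a human line of pancreatic cancer, had grown. All groups share the same parental line and carry no engineered allele that the labels mention. The question, as far as the design gives it, was how factors released by the tumour cells change gene expression in muscle cells. RNA was hybridised to 8 spotted arrays with 2 colours each, in 4 comparisons of 2 arrays. At matched hours these were MBC14 over MBN14 and MBC24 over MBN24, and against the start of the experiment MBC14 over MBN0 and MBC24 over MBN0. The symbols are those of human genes and the labels call the platform a human array, while the labelled RNA was murine. Signal on a spot may thus come from the mouse ortholog or from a related transcript.

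MYOD1 encodes a basic helix-loop-helix transcription factor that commits cells to the muscle lineage and switches on muscle genes as a dimer with an E protein. ID3 encodes a helix-loop-helix protein without the basic, DNA-binding stretch. It pairs with E proteins and so keeps MYOD1 from its target genes, and it is typically made in dividing myoblasts. CDKN1C encodes p57, an inhibitor of cyclin-dependent kinases that takes part in the exit from the cell cycle that precedes fusion into myotubes.

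Each deposited value is 1 signed score per spot and array, of unstated scale, so 1 unit below is 1 score unit and no fold change is given. On array A of each comparison the conditioned RNA was in Cy5, and on array B, the dye swap, it was in Cy3. Both arrays of a comparison hold the same pair of RNAs. They count as 1 replicate, and every SD over arrays A and B is technical. The deposited scores of a pair correlated negatively over the 2922 genes, with r = -0.32 and -0.28 for the matched comparisons at 14 and 24 h and r = -0.13 and -0.27 for those against 0 h. Genes are not independent replicates, and these values are descriptive. Scores were therefore read mainly as Cy5 over Cy3, with the sign of array B turned, and positive values as higher in conditioned medium. In the other reading, conditioned over control, array B keeps its deposited sign. The readings differ only in the sign of array B, so a mean on the same side of 0 in both has the sign of array A. The labels do not settle the choice, so both are given. The negative correlation does not settle it either, since a dye effect particular to each gene could also give opposite signs as deposited. Such an effect was not tested. The direction itself is likely from the channels marked Test and Reference in the labels, and every sign would turn if scores were reference over test.

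The spots set the precision of what follows. Across 2641 genes with a single pair of neighbouring spots, the scores of the pair correlated at 0.31 to 0.63 within an array, as a description across genes. The median distance between them was 0.509 to 0.998 units. A gene was counted as past the size rule where the mean of its arrays lay 1 unit or more from 0 and neither array fell short of 0.5 on that side.

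**Figure D1:**
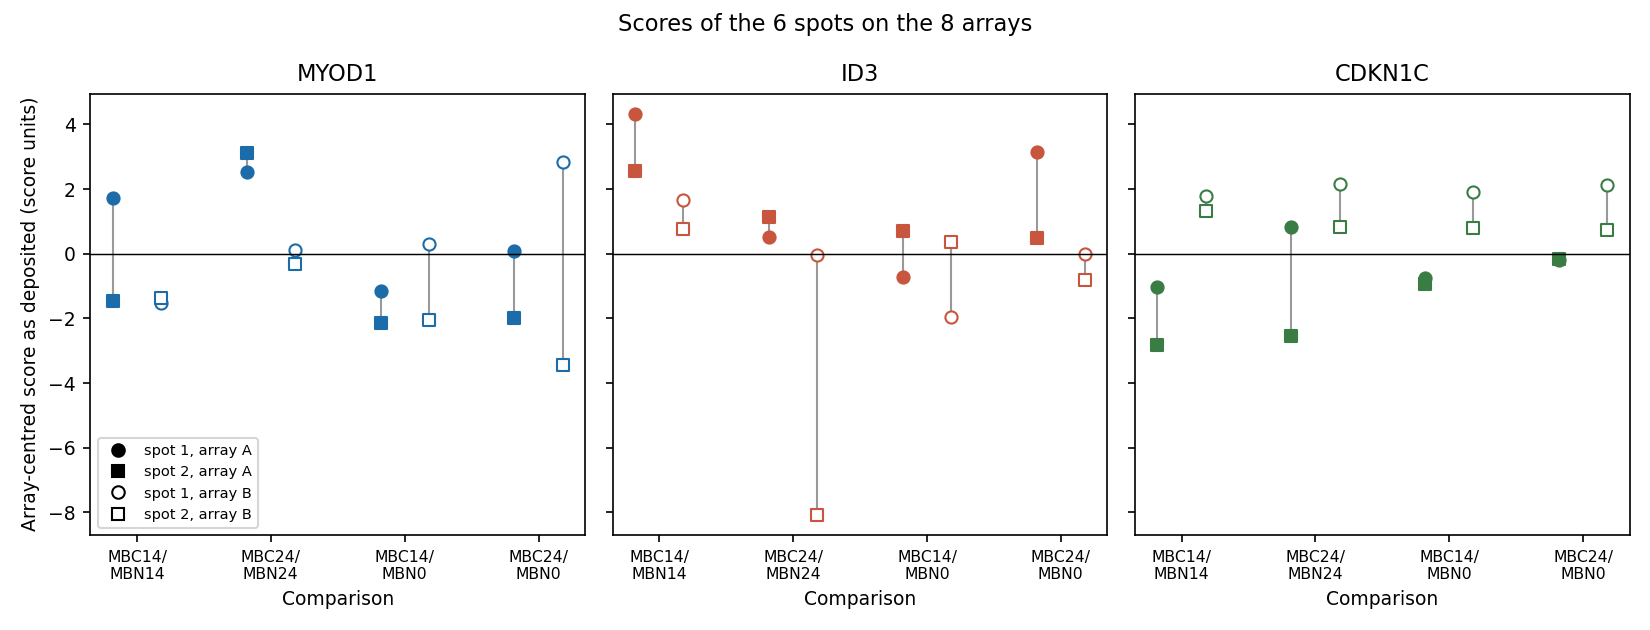
Array-centred scores as deposited, in score units, of both spots of MYOD1, ID3 and CDKN1C on arrays A (filled) and B (open) of the 4 comparisons; a grey line joins the spots of one array. All 8 array B spots of CDKN1C lie above 0 and 7 of its 8 array A spots below, while spot 2 of ID3 on array B of MBC24 over MBN24 lies at -8.07, away from its neighbour at -0.04.

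CDKN1C, the cell cycle exit gene, had the steadiest scores of the 3 genes in the Cy5-over-Cy3 reading. At 14 h against the matched control, its spots scored -1.03 and -2.82 on array A and -1.79 and -1.33 on array B. All 4 readings were below 0, and the gene mean was -1.74 ± 0.26 (SD, n = 2 arrays here and for each ± on a comparison below). At 24 h against the matched control the spots scored 0.84 and -2.55 on array A and -2.15 and -0.82 on array B, a mean of -1.17 ± 0.45. Here the spots of array A lay on opposite sides of 0, 3.39 units apart, a distance larger than that of 96.2% of spot pairs on this array. Against control medium at 0 h, the 14 h spots scored -0.74 and -0.92 on array A and -1.90 and -0.78 on array B, a mean of -1.09 ± 0.36. At 24 h against 0 h they scored -0.20 and -0.16 on array A and -2.12 and -0.74 on array B, a mean of -0.80 ± 0.89. In all, 15 of 16 spot readings and 8 of 8 array means of CDKN1C were below 0 with array B turned. The same values read as conditioned over control gave 4 array means above 0 and 4 below. These counts include the matched comparisons on which the gene was chosen. The arrays also share RNAs, so their readings are no repeats of each other. How many of all genes lay on 1 side of 0 throughout was not counted. By the text on labelling, array B of MBC14 over MBN0 stays unturned. That array mean of CDKN1C is then 1.34, and the count of 8 of 8 does not hold.

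Past the size rule, CDKN1C was lower in MBC14 over MBN14, where 19.9% of all genes passed in either direction, and in MBC24 over MBN24, where 17.6% did. It was also lower in MBC14 over MBN0 (15.7% of genes), and did not pass in MBC24 over MBN0 (19.3% of genes). With array B of MBC14 over MBN0 unturned, by the text on labelling, the CDKN1C mean there was 0.26 and did not pass. The matched comparisons chose the gene, so its counts there are a description. With array B as deposited, its means were -0.18 ± 2.47 at 14 h and 0.31 ± 1.66 at 24 h against the matched control, and 0.26 ± 1.54 and 0.63 ± 1.14 against 0 h. Array A was below 0 and array B above 0 in 4 of 4 comparisons there, so the arrays of each pair lay on opposite sides of 0, and CDKN1C passed in none. When each spot was instead centred on the 51 neighbouring spots, the mean moved from -1.74 to -1.22 at 14 h matched and from -1.09 to -0.64 in MBC14 over MBN0, where it no longer passed. At 24 h matched it no longer passed either under this centring.

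ID3, the inhibitor, had matched-hour means above 0 in the Cy5-over-Cy3 reading, but the arrays behind them differed. At 14 h its spots scored 4.33 and 2.55 on array A and -1.67 and -0.76 on array B. The arrays thus opposed each other, and the mean of 1.11 ± 3.29 lay within their spread and missed the size rule. As deposited, all 4 spot readings were above 0, so the conditioned-over-control reading gave 2.33 ± 1.57 and ID3 passed as higher there, as did 6.37% of genes in either direction. ID3 was therefore above 0 at 14 h in both readings, which is the sign of array A. Its rank among 2922 genes depended on reading and hour. In MBC14 over MBN14 it ranked 11 from the top as conditioned over control and 278 as Cy5 over Cy3. In MBC24 over MBN24 it ranked 43 from the bottom in the former reading and 44 from the top in the latter. The gene was selected on matched-hour scores, so these ranks are a description.

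At 24 h the order of the readings was turned round. The ID3 spots scored 0.53 and 1.15 on array A and 0.04 and 8.07 on array B, for a mean of 2.45 ± 2.28 that passed the size rule as higher. The spots of array B lay 8.03 units apart, farther than 99.7% of spot pairs on that array, whose median distance was 0.51. Spot 1 by itself gave a 24 h mean of 0.29 and spot 2 one of 4.61, so the passing value rests on 1 spot of 1 array. Read as conditioned over control, ID3 scored -1.61 ± 3.46 at 24 h and did not pass (6.02% of genes did). Spot 2 of array B carried most of the score there too, with the other sign.

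Against control medium at 0 h, ID3 spots scored -0.72 and 0.70 on array A and 1.96 and -0.37 on array B at 14 h. The mean of 0.39 ± 0.57 held readings on both sides of 0. At 24 h the spots scored 3.13 and 0.50 on array A and 0.01 and 0.80 on array B, with all 4 above 0 and a mean of 1.11 ± 0.998. Array B reached 0.41, short of the 0.5 that the size rule asks for. In the conditioned-over-control reading these means were -0.40 ± 0.55 at 14 h and 0.71 ± 1.57 at 24 h. The former is also the value that follows from the text on labelling of array B. ID3 stayed above 0 in both readings at 24 h against 0 h and at 14 h against its matched control, which is the sign of array A. No gene can pass the size rule in both readings, since they differ only in the sign of array B.

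MYOD1, the driver of differentiation, gave matched-hour means above 0 in the Cy5-over-Cy3 reading that passed the size rule at neither hour. At 14 h its spots scored 1.71 and -1.47 on array A and 1.52 and 1.37 on array B, a mean of 0.78 ± 0.93. Spot 1 by itself scored 1.62 and passed as higher, whereas spot 2 lay at -0.05. At 24 h the spots scored 2.54 and 3.13 on array A but -0.12 and 0.33 on array B, a mean of 1.47 ± 1.93. Its high score there came from array A, on which the spots lay 0.59 units apart, and array B was near 0. Read as conditioned over control, MYOD1 scored -0.66 ± 1.11 at 14 h and 1.36 ± 2.08 at 24 h. Its 24 h mean was thus above 0 in both readings, the sign of array A, and its 14 h mean in 1.

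Against 0 h, MYOD1 lay on the other side of 0. At 14 h its spots scored -1.16 and -2.15 on array A and -0.31 and 2.04 on array B, with a mean of -0.40 ± 1.78. At 24 h they scored 0.07 and -1.98 on array A and -2.85 and 3.46 on array B, with a mean of -0.33 ± 0.89. The spots of this last array lay 6.30 units apart, farther than 99.7% of its spot pairs, and the gene mean there lay between opposite readings. In the conditioned-over-control reading the means were -1.26 ± 0.56 at 14 h and -0.63 ± 0.46 at 24 h, with both arrays below 0 at each hour. The former passed the size rule as lower, where 10.3% of genes passed, and the latter did not, where 6.84% did. MYOD1 thus scored below 0 against 0 h in both readings at both hours, which is the sign of array A. With array B turned, that array lay above 0 at 14 h (0.86) and at 24 h (0.30). For array B of that 14 h comparison, the text on labelling swaps the dyes relative to the dye field used here. Following that text leaves this array unturned and gives the conditioned-over-control value of that comparison.

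**Figure D2:**
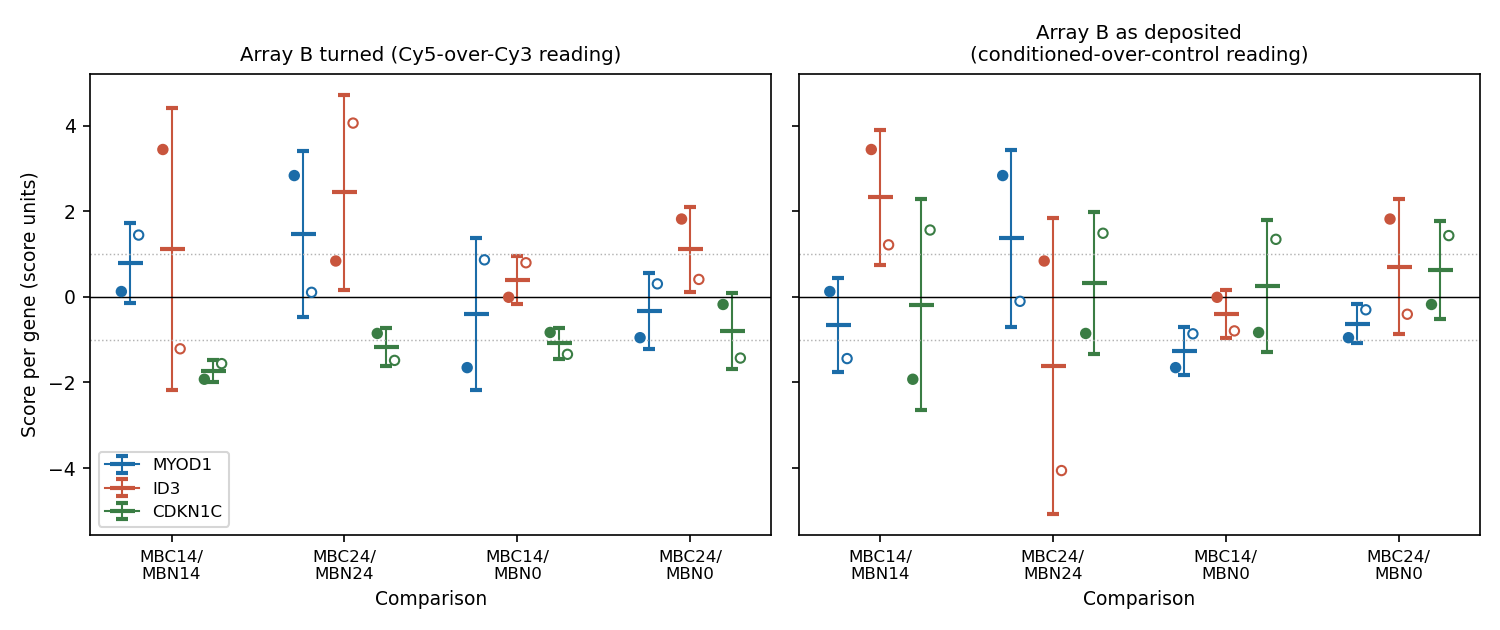
Gene scores in score units in the 4 comparisons, with array B turned (left) and as deposited (right); filled points are array A, open points array B, bars the mean with the SD over the arrays, and dotted lines mark 1 unit either side of 0. CDKN1C has means from -1.74 to -0.80 on the left, where the bar of MBC24 over MBN0 (SD 0.89) is longer than its mean, and means from -0.18 to 0.63 on the right, each with a bar longer than the mean, while ID3 at 24 h matched moves from 2.45 to -1.61.

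Over both matched hours, the means in the Cy5-over-Cy3 reading were 1.13 ± 0.49 for MYOD1, 1.78 ± 0.94 for ID3 and -1.46 ± 0.40 for CDKN1C (SD, n = 2 comparisons). The differentiation driver and its inhibitor thus had means on one side of 0, and the cell cycle exit gene on the other. Read as conditioned over control, the means were 0.35 ± 1.43, 0.36 ± 2.79 and 0.07 ± 0.35. In that reading each mean lay closer to 0 than its spread. Arrays A and B as deposited had opposite signs in 2 of 4 comparisons for MYOD1, in 2 of 4 for ID3 and in 4 of 4 for CDKN1C.

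**Figure D3:**
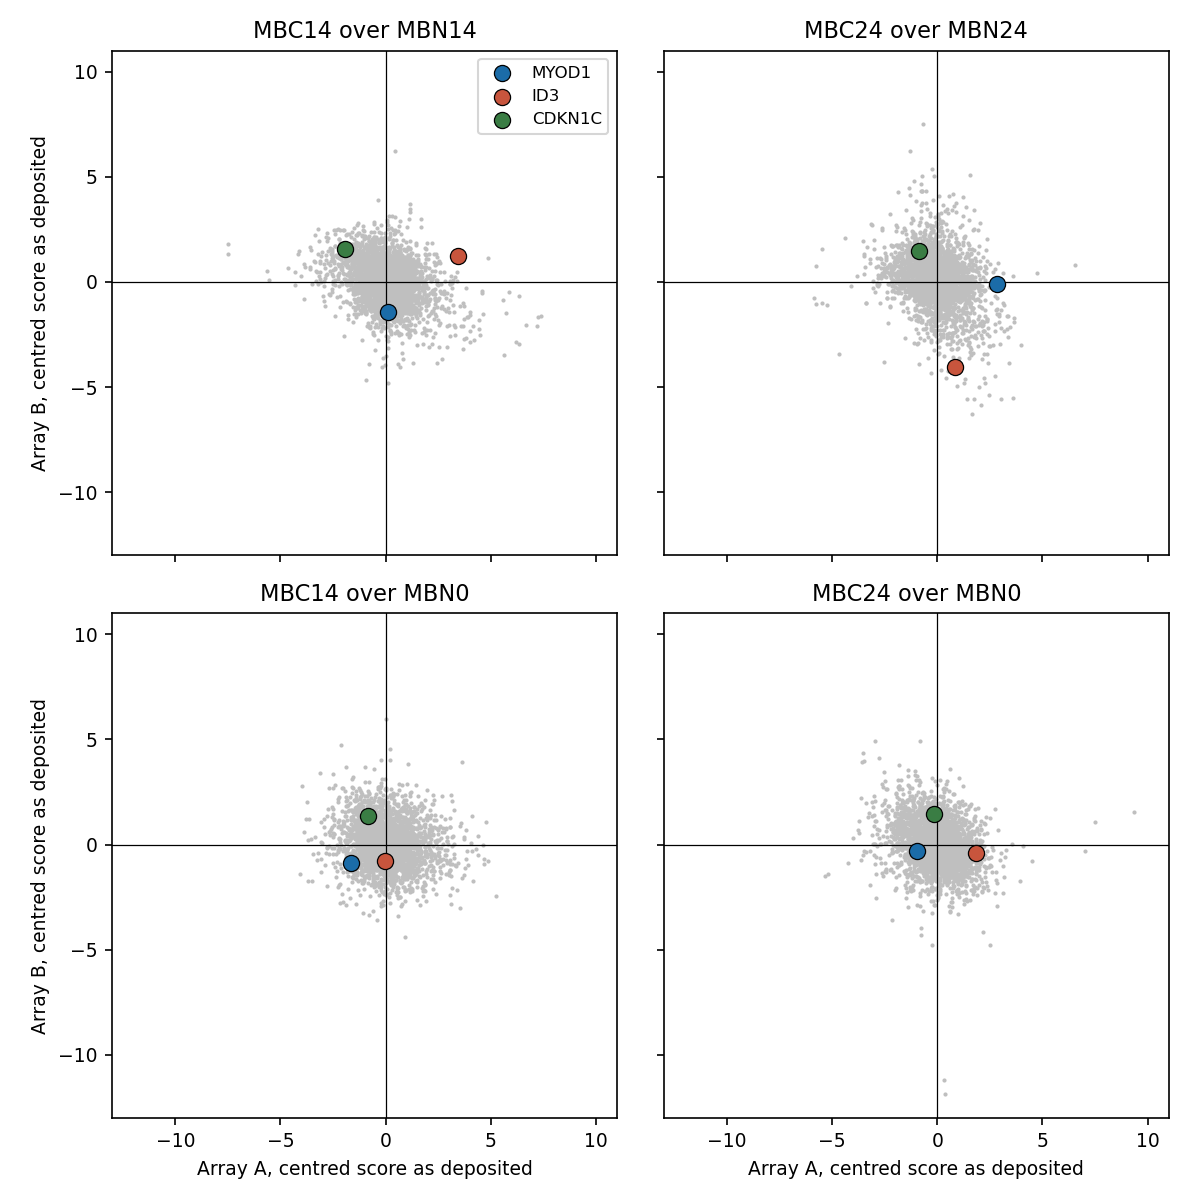
Centred scores as deposited of array A against array B for the 2922 genes (grey) in the 4 comparisons, in score units, with the 3 genes in colour. CDKN1C lies in the upper left (array A below 0, array B above 0) in 4 of 4 panels, and ID3 lies in the upper right in MBC14 over MBN14 and in the lower right in MBC24 over MBN24.

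The control course was obtained by subtraction within each array letter, since no array compared control medium at 2 times. These values are indirect, share their arrays with the comparisons above, and add scores whose scale is unknown. Those that use MBC14 over MBN0 rest on the dye field for its array B, and were not recomputed with the text on labelling. MYOD1 in control medium scored -1.18 ± 0.85 at 14 h and -1.79 ± 2.82 at 24 h against 0 h in the Cy5-over-Cy3 reading, and -0.60 ± 1.67 and -1.99 ± 2.54 in the other. The derived MYOD1 means were below 0 in both readings at both hours, with a spread larger than the mean in 3 of the 4. The shared sign is again that of array A. ID3 in control medium scored -0.72 ± 3.86 and -1.34 ± 3.28 in the former reading and -2.73 ± 1.02 and 2.32 ± 1.89 in the latter, so no direction was shared at 24 h. CDKN1C in control medium scored 0.66 ± 0.62 at 14 h and 0.37 ± 0.44 at 24 h, and 0.44 ± 0.93 and 0.31 ± 0.52 in the other reading. These CDKN1C means were above 0 in both readings, the sign of array A, and smaller than 1 unit. Within conditioned medium, from 14 to 24 h, the derived difference in the Cy5-over-Cy3 reading was 0.07 ± 0.89 for MYOD1, 0.72 ± 1.57 for ID3 and 0.28 ± 0.52 for CDKN1C, each within its spread. In the conditioned-over-control reading it was 0.63 ± 0.098 for MYOD1 and 1.11 ± 1.02 for ID3, both above 0 by more than their spread, and 0.37 ± 0.40 for CDKN1C, within it.

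The genes with the most similar profile were found by the uncentred correlation over the 8 arrays, which runs from -1 to 1 and does not depend on which arrays are turned. For MYOD1 these were ETAA1 (0.94), ZNHIT1 (0.89) and TLE5 (0.88), and the most opposed was SLC39A13 (-0.97). For ID3 they were DNAJB5 (0.93), the glycolytic aldolase gene ALDOA (0.92) and the histone deacetylase gene HDAC2 (0.91), with EHD2 (-0.93) most opposed. For CDKN1C they were DECR2 (0.96), the beta tubulin gene TUBB (0.95) and HADHB (0.95), with the clathrin adaptor gene AP2S1 (-0.94) most opposed. At least 0.8 was reached by 84 of 2921 other genes for CDKN1C, by 24 for ID3 and by 16 for MYOD1. With 8 arrays that share RNAs, such values describe likeness only. Among the 3 genes, ID3 and CDKN1C gave -0.62, MYOD1 and CDKN1C -0.36, and MYOD1 and ID3 0.03.

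The other genes of the same regulation were set beside these, through lists by function. The test for them was limma on the 2 matched-hour values per gene in the Cy5-over-Cy3 reading, fitted over all 2922 genes, of which it called 5.20%. limma moves the variance of each gene towards that of all genes, so its SE and p-values draw largely on the spread of other genes. The labels mention no separate cultures, so the spread between the 2 values of a gene may be technical. Of 77 listed genes other than MYOD1, ID3 and CDKN1C, 9 passed. With array B as deposited, limma called 0 of all 2922 genes and 91 had an unadjusted p under 0.05, so each call below is from a single reading. Without the A arrays limma called 0 genes as well (303 at an unadjusted p under 0.05), and without the B arrays 7 of the 9 were called. The fit without the B arrays reached an adjusted p of 9.58e-19 in limma from 2 values per gene. Its calls thus rest almost wholly on variance pooled over genes. A replicate block on the array letter, with an estimated correlation, kept 4 of the 9 (ITGA7, MYL2, TRIM63 and CKB), and the blocked p is given beside the 5 that it lost.

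Among the partners of MYOD1, 0 of 4 other myogenic transcription factors passed in limma. MEF2C, a MADS-box factor that works with MYOD1, scored -1.10 ± 0.39 (limma's moderated SE here and below, 2 matched-hour values per gene). MYF6, a later myogenic factor, scored 0.59 ± 0.39, and TEAD4 0.30 ± 0.38. The list median was 0.05, beside -0.05 over all genes. Of 6 cofactors 0 passed, with the chromatin remodelling ATPase SMARCA4 at -1.45 ± 0.49, its complex member SMARCD3 at -0.64 ± 0.43 and the muscle LIM protein CSRP3 at 0.77 ± 0.46, and a list median of -0.33.

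Among the 5 inhibitors of differentiation measured beside ID3, 0 passed and 4 lay below 0, with a median of -0.58. HES1, the Notch effector, scored -1.01 ± 0.43, HDAC5, a repressor of MEF2 factors, -0.77 ± 0.38, and BHLHE40 -0.58 ± 0.38. The highest of the 5 reached 0.40. Of 3 measured genes of BMP and TGF beta signalling, SMAD3 fell (-1.75 ± 0.40, adjusted p = 0.0375 in limma), as the single call. Its call was lost with the replicate block (adjusted p = 0.0546 in limma) and without the B arrays (adjusted p = 0.220). SMAD1, which carries the BMP signal, scored -0.70 ± 0.41 and FSTL1 -0.32 ± 0.39.

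Among the 4 genes of cell cycle exit measured beside CDKN1C, 0 passed and the median was -0.04. The antiproliferative gene BTG1 scored -0.95 ± 0.38, its relative BTG3 0.49 ± 0.41 and the stress gene GADD45B -0.47 ± 0.41. Of 10 genes of cell cycle progression 0 passed, with a median of 0.21. TUBB scored -1.22 ± 0.39, the microtubule regulator STMN1 1.14 ± 0.38 and the kinase CDK6 -0.93 ± 0.42, so its members lay on both sides of 0.

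Of 38 muscle genes that differentiation switches on, 5 rose and 2 fell in limma, and the list median was 0.06. The rises included ITGA7, a laminin receptor subunit (2.22 ± 0.43, adjusted p = 0.0232), MYL2, a myosin light chain (2.30 ± 0.47, adjusted p = 0.0266), and TNNC1, the troponin C of slow fibres (2.20 ± 0.48, adjusted p = 0.0353). The other rises were the ubiquitin ligases TRIM63 (2.57 ± 0.40, adjusted p = 0.00956) and TRIM55 (1.79 ± 0.39, adjusted p = 0.0342). ITGA7 was also listed as a marker of myoblasts. Of the 5 such markers measured beside MYOD1, it was the 1 that passed, and 3 lay above 0 and 2 below. The creatine kinase gene CKB (-1.97 ± 0.43, adjusted p = 0.0342) and XIRP1 (-1.70 ± 0.40, adjusted p = 0.0432) fell. CKM, the muscle creatine kinase on the same list (22 spots), scored -0.22 ± 0.38 without passing. With the replicate block the adjusted p in limma was 0.0558 for TNNC1, 0.0800 for TRIM55 and 0.0677 for XIRP1, so that 3 rises and 1 fall were left, and without the B arrays XIRP1 was lost too (adjusted p = 0.246). TNNI1 scored 1.31 ± 0.39, ACTC1 -1.17 ± 0.48 and MYOM2 -1.03 ± 0.41 without passing. In the IGF axis, which drives myoblast differentiation, 1 of 8 genes passed, the binding protein IGFBP2 (1.79 ± 0.38, adjusted p = 0.0334), and the median was 0.33. With the replicate block it no longer passed (adjusted p = 0.0577 in limma). IGF2 scored 1.33 ± 0.42, IGF2R -0.86 ± 0.40 and IGFBP5 0.74 ± 0.40.

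**Figure D4:**
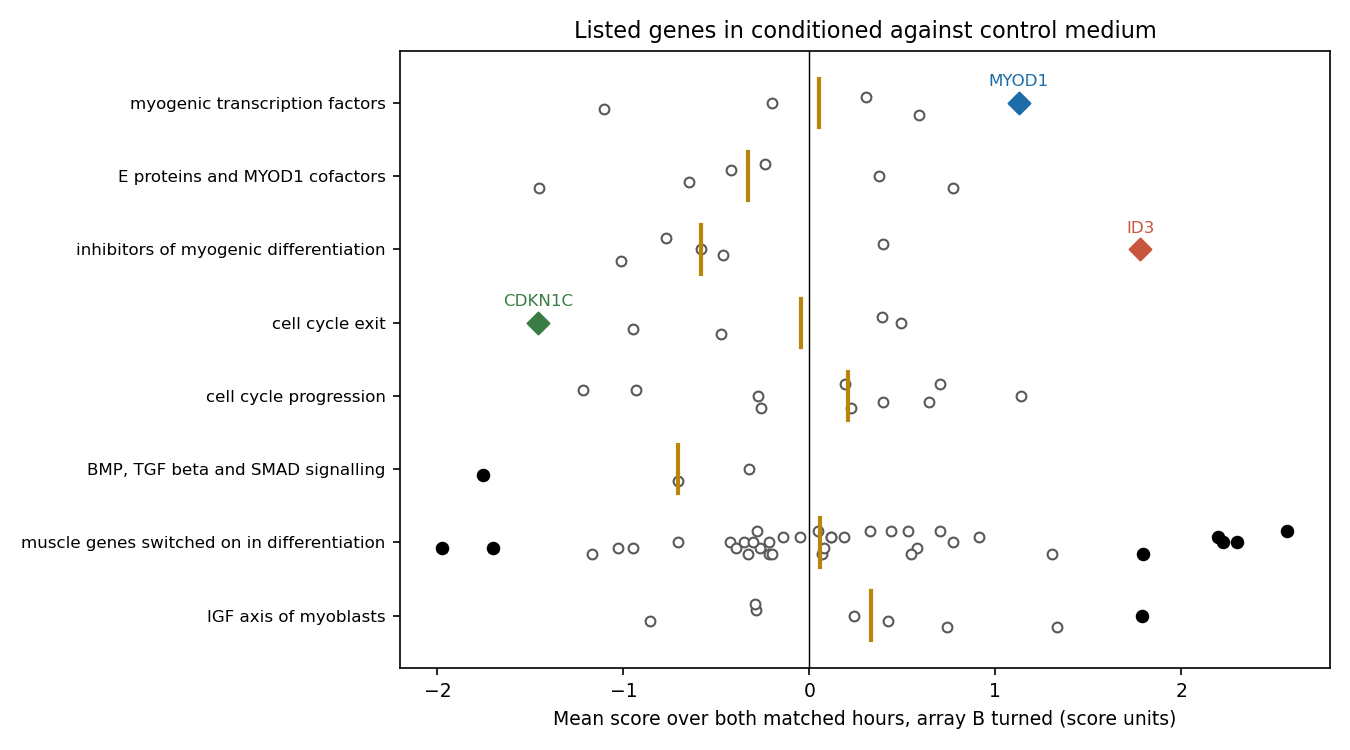
Mean score over both matched hours with array B turned, in score units, of the listed genes; black points passed limma, open points did not, vertical lines are list medians without the 3 genes, and diamonds mark MYOD1, ID3 and CDKN1C, which were not tested. The diamonds lie at 1.13 for MYOD1, 1.78 for ID3 and -1.46 for CDKN1C, the values on which these genes were chosen, and the muscle genes spread on both sides of 0 around a median of 0.06.

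Ratios give no level, so the identity of the cells could not be checked from markers. Of 26 measured markers of epithelial, fibroblast, adipocyte, blood and endothelial cells, 5 passed limma in the Cy5-over-Cy3 reading, as did 5.20% of all genes. These were HBA2 (3.97), CD37 (3.28) and S100A8 (1.80), which rose, and HLA-DRB1 (-2.25) and CLDN5 (-1.86), which fell. Of 11 blood and immune markers 6 lay above 0 and 5 below, and of 3 endothelial ones 2 above and 1 below. Beside HBA2, HBA1 scored -0.45 and HBB -0.88. S100A9 scored -0.51 beside S100A8, and HLA-DRA 0.48 beside HLA-DRB1, all without passing. The calls thus concern single genes and no cell type as a whole. With the replicate block HLA-DRB1 no longer passed (adjusted p = 0.0607 in limma), and without the B arrays S100A8, HLA-DRB1 and CLDN5 did not. The 3 epithelial markers measured, from the lineage of the conditioning cells, lay between -0.20 and 0.13. The part of such genes in the scores of MYOD1, ID3 and CDKN1C was not tested.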

How the data were processed

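The authors deposited a signed score for each of 9984 spots on each of 8 arrays, with no missing value. Background correction, normalisation, scale and ratio direction of these deposited scores are not given in the sources used here. They reach from -23.57 to 24.79. Signal over background and depth are thus unknown, and the number of arrays limits the precision. Symbols came from the platform annotation: 6610 spots list 1 gene, 106 several and 3268 are unnamed here.

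Each array was centred on its median, array B was turned (the labels' dye field gives the orientation), and spots of a gene were averaged. The test plan fitted the scores as they stand. limma (version 3.58.1, R 4.3.3) tested the mean of the array-averaged matched-hour scores against 0, two-sided, with Benjamini-Hochberg adjustment over 2922 genes and a threshold of 0.05. The fit was also run on simulated independent normal values with known shifts, without a dye effect or shared RNA. That run checks the code and does not bear on the calls reported here. Alternatives concerned the reading of array B, centring, scaling, spot averaging, single spots, single arrays, a replicate block, all 4 comparisons and a stricter size rule.

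Genes and lists were chosen with earlier results of these data known. Beside MYOD1, ID3 and CDKN1C, the text names the listed genes that passed limma and up to 3 others per list by size of matched mean. It also names the 3 most alike and 1 most opposed gene per member. Markers that passed, the markers set beside them, and CKM were named after their values were seen. Probe sequences were not used here.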

Additional observations from a re-analysis of the deposited data

Results flagged for a closer look

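Against control medium at 0 h, 3 of the pathway genes named in the report lay on opposite sides of 0 at 14 h and 24 h. They did so on both arrays at each hour, with array B turned. Listed genes that the report does not name and markers of cell types are not counted. The difference between the hours was not tested. The 14 h values rest on the dye field for array B of MBC14 over MBN0. IGFBP2 went from -1.56 to 1.09, a difference of 2.65 units. MYL2 went from -0.48 to 0.83, a difference of 1.30. TEAD4 went from 0.51 to -0.60, a difference of -1.11. None of MYOD1, ID3 and CDKN1C did so in either pair of hours.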

How the results depend on the processing

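limma called 152 genes over both matched hours and 0 with array B as deposited (91 at an unadjusted p under 0.05). It called 98 with a replicate block (array letter fixed, comparison random, its correlation estimated on all 8 arrays) and 9 with all 4 comparisons, which share RNAs. Leaving out 1 array of each comparison gave 0 without the A arrays (303 at an unadjusted p under 0.05) and 128 without the B arrays. Those 128 rest almost wholly on variance pooled over genes. Of the 9 called pathway genes, 4 were called with the replicate block, 4 with centring on neighbouring spots and 0 with all 4 comparisons, and MYL2 (-0.0804), TRIM63 (-0.0238), SMAD3 (0.22) and XIRP1 (0.22) changed sign with array B as deposited. The size rule passed 186, 176, 302 and 200 genes with array B as deposited, first at 14 and 24 h matched and then at 14 and 24 h against 0 h. The stricter rule, 2 units in the mean and 1 on each array, passed 104, 108, 57 and 77. Asking only that 1 array, by itself, lie 1 unit or more from 0 passed 994 to 1006, 950 to 981, 947 to 1015 and 960 to 1005, since fewer conditions apply. With array B as deposited, ID3 at 24 h matched (-1.61) and CDKN1C at 24 h matched (0.31) and in MBC14 over MBN0 (0.26), all past the size rule, changed sign. Of the other values, MYOD1 at 14 h matched (-0.66), ID3 in MBC14 over MBN0 (-0.40) and CDKN1C in MBC24 over MBN0 (0.63) changed sign too. So did the CDKN1C mean over both matched hours (0.066). Beyond their spread but with the same sign moved CDKN1C at 14 h matched (-0.18) and the means over both matched hours of MYOD1 (0.35) and ID3 (0.36). Spots 1 and 2 by themselves gave -1.39 and 0.74 for MYOD1 in MBC24 over MBN0, 0.81 and 2.75 for ID3 over both matched hours, and -1.03 and -1.88 for CDKN1C there. CDKN1C spots gave -1.41 and -2.08 at 14 h matched, and -0.66 and -1.69 at 24 h. Centring on 51 neighbouring spots gave CDKN1C -1.22 at 14 h matched, -0.64 in MBC14 over MBN0 and -0.98 over both matched hours. The cause was not tested for any of these, apart from the settings' own construction. The other 133 recomputed values of these counts and of the 3 genes stayed within 1.5 times the count or within the spread. This number is no measure of stability, since part of it was fixed by construction. Each of the 3 genes has 2 spots, so their median equals their mean. Leaving out 1 array always moves a comparison mean by less than its SD. Values within the spread could change sign, as ID3 at 14 h matched did without array A (1.11 to -1.21).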
